A study of Mus musculus with 8 samples.

Results

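GABA-A receptors are chloride channels opened by the transmitter GABA, and they carry most fast inhibition in the hippocampus. The 7 genes described here encode subunits of these receptors: the alpha subunits *Gabra2*, *Gabra3*, *Gabra4* and *Gabra5*, the beta subunits *Gabrb1* and *Gabrb2*, and the delta subunit *Gabrd*. They were taken by name with all of their probes, mapped through the RefSeq accession in the array files. The 7 genes had 8 probes on the array, a second and dimmer one for *Gabra3*, and all 8 were among the 32599 probes tested, which covered 15090 named genes. No value of these arrays entered the rule, but the genes were listed with earlier results of the same data known.

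Each receptor is a ring of subunits around a chloride pore, and the alpha and beta subunits form the pockets where GABA binds. The alpha subunit sets how a receptor responds to GABA and to benzodiazepines. Many receptors cluster at synapses, whereas those that pair alpha4 with delta, and most of those that hold alpha5, lie outside them and carry tonic inhibition. In the hippocampus, delta is known above all from the granule cells of the dentate gyrus, and alpha5 from the pyramidal cells. The aryl hydrocarbon receptor (AHR), which binds benzo[a]pyrene (BaP), acts on DNA together with its partner ARNT.

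Hippocampal RNA came from 8 adult male mice, 9 weeks old, of the Muta Mouse strain, which carries a bacterial reporter transgene in all of its cells, controls included. The 4 BaP-exposed mice received 70 mg/kg bw of BaP in olive oil by gavage daily for 3 days, the 4 control mice received the vehicle, and the hippocampus was taken 24 hr after dosing ended. Each mouse was measured on 1 of 8 Agilent arrays of 1 slide, with hippocampal RNA in Cy5, a universal mouse reference RNA in Cy3 and no dye swap. The design text calls the mice biological replicates.

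On 4 of the arrays, those of mice 3 and 4 of both groups, the title and the source name gave opposite groups. The titles were used here, because the mouse numbers in the labels run with them. These 4 arrays formed the second row of the slide, and the 4 with agreeing labels formed the first, so the conflict and the row cannot be told apart. Spots had a median Cy5 signal between 108 and 174 on the various arrays, over a background of 67 to 71, and 56.6% to 67.4% of spots were well above background. Outlier marks were set on 1483 spots for control mouse 1 and on 310 to 371 for the others. Of 6 hippocampal CA1 markers 4 were at least 2-fold over the reference, as were 5 of 7 dentate granule cell markers, and all 6 pan-neuronal markers. Of the CA3 markers 2 of 4 tested were. Of markers of other tissue, 5 of 7 for striatum, 3 of 8 for thalamus and 7 of 8 for choroid plexus were as well. The share over all probes was 21.2%, and these counts do not single out hippocampus. Erythroid markers had lower means with BaP for all 6 tested genes, 2 of them called, with list means of the log2 ratio of 3.81 to 4.01 in control mice and 2.89 to 3.20 in BaP-exposed mice.

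The DNA before the start of these genes is shown because AHR and ARNT bind a short core, GCGTG, and because the members differ sharply in base composition there. RefSeq promoter windows on GRCm38.p6 were matched for 6 of the 7 genes, 10 windows in all, and the 250 bases before each start were searched on both strands. The core was found in 3 windows of 3 genes, against 28.16% of all 32851 windows. Stretches of 30 bases around it, with the core or its reverse complement CACGC in capitals, lie at chr5:71658389-71658418 (minus strand), chr5:71657891-71657920 (plus strand) and chr11:42420260-42420289 (plus strand) and read, 5′ to 3′:
Gabra4: tacctcccaccgcCACGCcccgcaaagcct
Gabrb1: agtggctcccgcgGCGTGcgcacactcgcg
Gabrb2: accctctgtccctCACGCccccacttcttt
*Gabra4* and *Gabrb1* lie head to head on chromosome 5, with the starts of these windows 387 bases apart and each window inside the other gene. *Gabra2* is on chromosome 5 as well, *Gabra5* on chromosome 7, *Gabrb2* on 11, *Gabrd* on 4 and *Gabra3* on X. A match describes letters in a window and is not a measured binding site.

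The windows of *Gabra2* and *Gabra3* held the most CG pairs, a count shared with 1 window of *Gabrb1*, and the fewest. They are shown with each CG in capitals and lie before the outermost start of their gene at chr5:71095850-71096099 and chrX:72656920-72657169, both on the minus strand. That of *Gabra2* held 18 CG pairs and 70.0% G and C, and those of *Gabra3* held 0 CG pairs and 39.2% and 42.4% G and C. Over all windows the median was 6 CG pairs and 52.4% G and C.
Gabra2: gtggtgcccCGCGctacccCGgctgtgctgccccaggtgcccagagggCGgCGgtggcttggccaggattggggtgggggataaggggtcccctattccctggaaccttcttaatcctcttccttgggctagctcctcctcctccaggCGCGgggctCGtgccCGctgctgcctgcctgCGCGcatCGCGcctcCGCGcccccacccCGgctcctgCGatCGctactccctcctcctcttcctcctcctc
Gabra3: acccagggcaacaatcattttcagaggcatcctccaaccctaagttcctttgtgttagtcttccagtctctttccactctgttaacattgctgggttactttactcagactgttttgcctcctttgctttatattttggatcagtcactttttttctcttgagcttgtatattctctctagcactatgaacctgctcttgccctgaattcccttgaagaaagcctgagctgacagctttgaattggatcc
The letters TATAAA of the TATA box were found in 3 of the 10 windows, against 12.37% of all windows. The windows of *Gabra3* overlap and hold the same match, which lies on the strand opposite to the gene. The match of *Gabrb2* lies on the strand of the gene. The SP1 core GGGCGG was found in 3 of 10 against 32.74%, and the core TGACG of the site of the factor CREB in 0 of 10 against 17.77%. All 4 motifs were searched on both strands, and none contains another.

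None of the 7 subunit transcripts was called changed by BaP. In the comparison over all probes, 0.0092% of the 32599 probes were called at an adjusted p of 0.05 with at least a 1.5-fold change (limma, Benjamini-Hochberg), which is 3 probes, all lower in BaP-exposed mice. At an unadjusted p of 0.05, 0 of the 7 genes passed, against 8.76% of all probes. Of the 7, 3 had a higher and 4 a lower mean with BaP. The median log2 fold change was -0.11 beside -0.0043 over all probes. The adjusted p from limma ran from 0.582 to 0.935 over these genes. In 5 of the 7 the 95% interval of the change lay wholly within 1.5-fold in either direction, and only the intervals of *Gabra3* and *Gabra4* reached beyond it. All values below are log2 ratios of hippocampal over reference RNA unless named otherwise, and n is 4 mice per group.

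**Figure D1:**
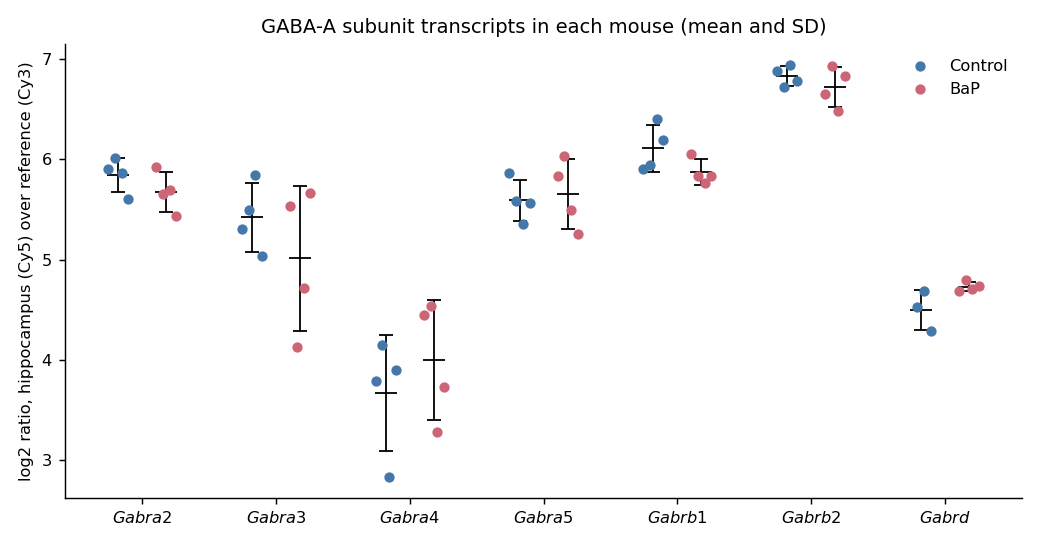
Log2 ratio of hippocampal (Cy5) over reference RNA (Cy3) of the brightest probe of each subunit gene, 1 point per mouse, 4 control and 4 BaP-exposed mice, with the mean and SD of each group as black bars; *Gabrd* has 3 control points. The groups overlap for every gene but *Gabrd*, whose highest control mouse (4.69) lies just under the lowest BaP-exposed mouse.

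*Gabra2*, whose product sits at synapses on the cell body and axon initial segment of pyramidal cells, had log2 ratios of 5.90, 6.01, 5.86 and 5.60 in control mice 1 to 4 and of 5.92, 5.66, 5.69 and 5.43 in BaP-exposed mice 1 to 4. The groups overlapped: BaP-exposed mouse 1 was higher than 3 of the control mice. The log2 fold change was -0.17 (SE 0.12, 95% interval -0.44 to 0.10, adjusted p = 0.692 from limma). With 1 mouse left out it ran from -0.25 to -0.088, the smaller value without BaP-exposed mouse 4. On the hippocampal channel alone the range was 11.6 to 11.8 in control mice and 11.5 to 11.8 in BaP-exposed mice.

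*Gabra5*, the alpha subunit of extrasynaptic receptors on pyramidal cells, had log2 ratios of 5.86, 5.59, 5.36 and 5.56 in control mice. In BaP-exposed mice the ratios were 5.84, 6.03, 5.50 and 5.25. The BaP-exposed mice held both the highest and the lowest of the 8 values, and the log2 fold change was 0.06 (SE 0.17, 95% interval -0.31 to 0.44, adjusted p = 0.935 from limma). It was -0.063 without BaP-exposed mouse 2, -0.015 without control mouse 3 and 0.20 without BaP-exposed mouse 4, and the scanner software's log ratio gave -0.16 and the hippocampal channel alone 0.23.

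*Gabra3*, an alpha subunit best known from cortex and the thalamic reticular nucleus, had the widest spread among the BaP-exposed mice. Its brightest probe had log2 ratios of 5.31, 5.50, 5.84 and 5.03 in control mice and of 5.54, 4.13, 4.72 and 5.67 in BaP-exposed mice. BaP-exposed mice 2 and 3 were below all of the control mice, while mice 1 and 4 were within their range. The SD was 0.34 in control and 0.73 in BaP-exposed mice, and the log2 fold change was -0.41 (SE 0.32, 95% interval -1.11 to 0.29, adjusted p = 0.711 from limma). The same 2 mice were low in the hippocampal channel alone, at 10.5 and 10.7 on the log2 scale, where the other 6 mice were at 11.3 to 12.1. Leaving out a mouse moved the change between -0.63 and -0.11, the smaller value without BaP-exposed mouse 2.

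The dimmer probe of *Gabra3* gave overlapping ratios and a change near 0. Its log2 ratios were 0.52, 0.56, 0.36 and 0.87 in control mice and 0.69, 0.40, 0.52 and 0.89 in BaP-exposed mice, with a log2 fold change of 0.05 (SE 0.13, adjusted p = 0.934 from limma). Its Cy5 signal was 89.5 to 145.5, near the background of 67 to 71, whereas the brightest probe gave 1217 to 4496. On the hippocampal channel alone BaP-exposed mice 2 and 3 were lowest for this probe too, at 6.55 and 6.525 where the other 6 mice were at 6.63 to 7.11, and the difference was -0.059. The reference channel was not well above background on any array for the dimmer probe. The mean of both probes gave -0.18 for the gene.

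**Figure D2:**
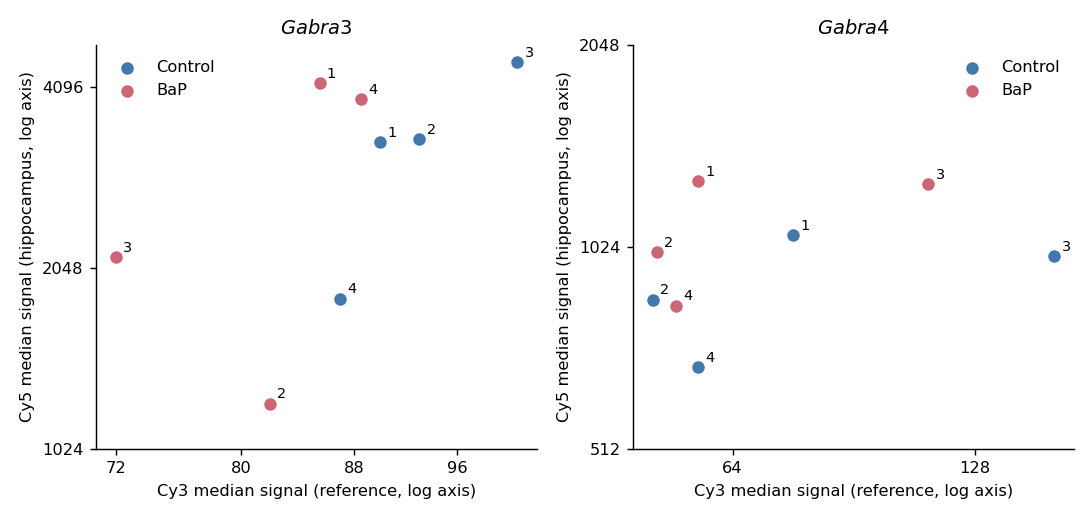
Median spot signal in Cy5 (hippocampus, vertical log axis) against Cy3 (reference, horizontal log axis) for the brightest probes of *Gabra3* and *Gabra4*, 1 numbered point per mouse in each group. For *Gabra3* the spread runs along Cy5, from 1217 to 4496, with BaP-exposed mouse 2 lowest; for *Gabra4* control mouse 3 and BaP-exposed mouse 3 stand apart along Cy3, at 160.5 and 112.

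*Gabra4*, the alpha partner of delta in extrasynaptic receptors, was the least even among the control mice. Its log2 ratios were 3.79, 4.15, 2.83 and 3.90 in control mice and 4.44, 4.54, 3.28 and 3.73 in BaP-exposed mice. Control mouse 3 and BaP-exposed mouse 3 were the lowest of their groups. The log2 fold change was 0.33 (SE 0.33, 95% interval -0.40 to 1.06, adjusted p = 0.781 from limma).

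The low ratios of *Gabra4* went with the reference channel. The Cy3 signal of this probe was 160.5 on the array of control mouse 3 and 112 on that of BaP-exposed mouse 3, and 51 to 76 on the other 6, and only on those 2 arrays was it well above background. On the hippocampal channel alone these mice did not stand apart, at 9.80 and 9.94 in ranges of 9.80 to 9.90 in control mice and 9.83 to 10.2 in BaP-exposed mice. That channel gave a log2 fold change of 0.15 in limma. Leaving out control mouse 3 changed the value from 0.33 to 0.05, and leaving out BaP-exposed mouse 3 changed it to 0.57.

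*Gabrb1* and *Gabrb2* encode beta subunits, which complete the GABA site and carry sites for anesthetics. *Gabrb1* had log2 ratios of 5.90, 5.94, 6.40 and 6.19 in control mice and of 6.06, 5.84, 5.76 and 5.83 in BaP-exposed mice. BaP-exposed mice 2, 3 and 4 were below all of the control mice, and mouse 1 was above control mice 1 and 2. The log2 fold change was -0.24 (SE 0.12, 95% interval -0.51 to 0.03, adjusted p = 0.597 from limma). Without control mouse 3 it was -0.14, and on the hippocampal channel alone it was -0.071. The change differed between the slide rows as a value: it was 0.02 over the 4 arrays with agreeing labels and -0.50 over the 4 arrays of the second row, where the labels conflict. The difference between rows was not tested.

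*Gabrb2* was the most even member among control mice. Its log2 ratios were 6.88, 6.72, 6.94 and 6.78 in control mice and 6.65, 6.93, 6.48 and 6.83 in BaP-exposed mice, with an SD of 0.10 and 0.20. BaP-exposed mice 1 and 3 were below the control range and mice 2 and 4 within it. The log2 fold change was -0.11 (SE 0.11, 95% interval -0.35 to 0.13, adjusted p = 0.785 from limma). It was -0.027 without BaP-exposed mouse 3 and -0.18 without BaP-exposed mouse 2. The hippocampal channel alone gave the opposite sign, 0.18.

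*Gabrd*, the delta subunit that makes receptors sensitive to neurosteroids and to low levels of GABA, was the 1 gene of the 7 whose groups did not overlap. Non-overlap in the higher direction was seen in 2.52% of all probes and in the lower direction in 2.54%. These shares are not a like comparison, since 32002 of the 32599 probes had a value on every array. *Gabrd* had only 3 control values, with which non-overlap arises more readily. Its log2 ratios were 4.53, 4.69 and 4.28 in control mice 2 to 4 and 4.69, 4.79, 4.71 and 4.73 in BaP-exposed mice, and the highest control mouse and the lowest BaP-exposed mouse differed only in the third decimal, 4.686 and 4.689. The BaP-exposed mice lay close together, with an SD of 0.04 against 0.20 in control mice. The log2 fold change was 0.23 (SE 0.11, 95% interval -0.01 to 0.47, adjusted p = 0.582 from limma), and the exact permutation test over 3 control and 4 BaP-exposed mice gave a 2-sided p of 0.0571, the smallest it can give for these numbers of mice.

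The spot of *Gabrd* on the array of control mouse 1 was marked as an outlier by the scanner software and left out. Its Cy3 signal was 290 there and 126 to 163.5 on the other arrays. With the outlier spots kept, the change was 0.45 on the log2 scale (limma, adjusted p = 0.568). On the hippocampal channel alone the groups overlapped, with 11.04 to 11.45 in control mice and 11.41 to 11.74 in BaP-exposed mice. The log2 fold change on that channel was larger, 0.35 (SE 0.13, adjusted p = 0.622 from limma). The change of the log2 ratio without control mouse 4, the lowest of the control mice with a value, was 0.12.

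Markers of dentate granule cells, where delta is known to be used, were on average higher in BaP-exposed mice for all 7 of 7 genes, of which 0 were called. The list's mean log2 ratio was 1.98, 2.04, 1.83 and 1.61 in control mice 1 to 4 and 2.22, 2.52, 2.50 and 1.90 in BaP-exposed mice 1 to 4. The groups overlapped. Control mouse 4 was lowest for this list, and for *Gabrd* among the 3 control mice with a value. In the authors' log2 ratios, which hold the spot left out here, control mouse 1 was lowest for *Gabrd*, at 3.32 beside 4.18 for control mouse 4. The lowest of the BaP-exposed mice for the list, mouse 4, was not low for *Gabrd*. Pan-neuronal markers went the other way as a list: 5 of 6 were lower, 0 were called, and the mean was 5.27 to 5.60 in control mice and 5.02 to 5.44 in BaP-exposed mice. The part of either list in the subunit values was not tested, and in bulk tissue fewer cells of a type and less RNA per cell cannot be told apart.

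**Figure D3:**
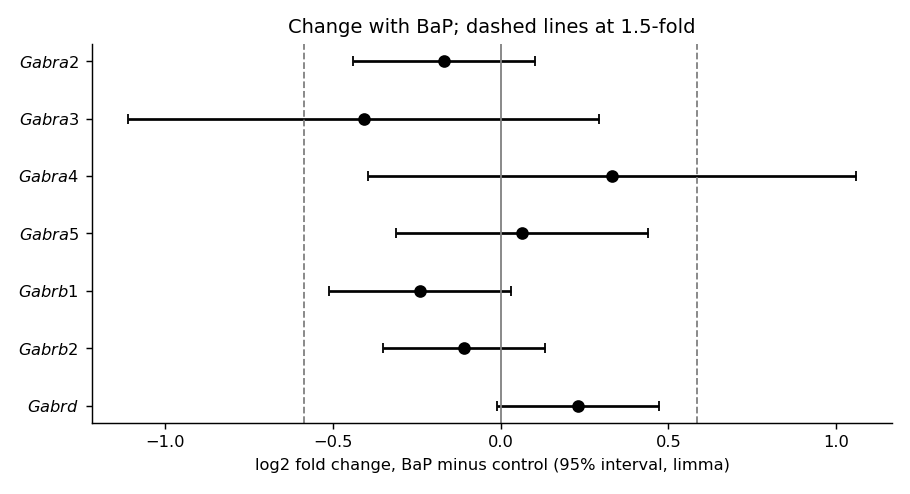
Log2 fold change of each subunit gene, BaP-exposed minus control mice, with the 95% interval from limma as bars; the solid line marks no change and the dashed lines a 1.5-fold change in either direction. All 7 intervals include 0, and those of *Gabra3* and *Gabra4* cross a dashed line.

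The members were also compared with each other from mouse to mouse. Over the 21 pairs of members, 11 had a Pearson r above 0 across the mice, and the median r was 0.07. The highest was between *Gabra4* and *Gabra5* (r 0.72, Spearman rho 0.79, n = 8) and the lowest between *Gabra3* and *Gabra5* (r -0.59). Both genes of the first pair had a weak reference signal: that of *Gabra4* was raised on the arrays of control mouse 3 and BaP-exposed mouse 3, and that of *Gabra5* was not well above background on any array and reached its highest, 72, on the array of BaP-exposed mouse 3. The part of the reference channel in this correlation was not tested. These correlations describe 8 arrays that share a slide and a reference, and no p is attached to them.

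The genes whose pattern over the mice was most like that of a member were listed by Pearson r among 14872 named genes with a value on every array. For *Gabra2* they were *Rbm12* (r 0.97) and *Adhfe1* (0.93), and for *Gabra3* *Rasgrp2* (0.96) and *Slc25a14* (0.96). For *Gabra4* they were *Taf13* (0.96) and *Olfr339* (0.95), and for *Gabra5* *Setbp1* (0.94) and *Aars2* (0.93). *Gabrb1* was closest to *Med22* (0.98) and *Amn1* (0.98), *Gabrb2* to *Nkpd1* (0.98) and *Pelo* (0.94), and *Gabrd*, over 7 mice, to *Dusp14* (0.98) and *Mapk4* (0.98). Spearman rho was 0.68 for *Dusp14* and at least 0.86 for the others. The highest of 14872 values over so few mice can be this high by selection alone. None of these 14 genes was itself a subunit of the receptor, and no p is attached to these values either.

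Against the reference RNA, a pool of mouse RNA used on every array, all 7 genes were far higher in the control hippocampus. By their brightest probes, all 7 were called at an adjusted p of 0.05 with at least a 2-fold difference (limma, largest adjusted p = 6.454e-08). So were 21.2% of all probes, a share that covers every tested probe and not the brightest alone. The dimmer *Gabra3* probe, at 0.58, was not 2-fold over the reference. Probes were kept, and the brightest chosen, on Cy5, the numerator of this ratio. The reference was 1 pool, and the test leaves out its spread. The mean log2 ratio of control mice was 6.83 for *Gabrb2*, 6.11 for *Gabrb1*, 5.84 for *Gabra2*, 5.59 for *Gabra5*, 5.42 for *Gabra3*, 4.50 for *Gabrd* and 3.67 for *Gabra4*. In this order the control mice of *Gabrb2* and *Gabrb1*, and of *Gabra3* and *Gabrd*, did not overlap. Those of *Gabrb1* and *Gabra3* lay within 5.90 to 6.40 and 5.03 to 5.84, an order that turned with the scanner software's log ratio. *Gabra2*, *Gabra5* and *Gabra4* are not placed against their neighbors, since their reference signal was well above background on 0, 0 and 1 of the control arrays. The order is of ratios to 1 pool and says nothing of how much of each transcript a cell holds.

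The reference gave little signal for several members, which bounds their ratios. Cy3 was well above background on all 4 control arrays for *Gabrb1*, *Gabrb2* and *Gabrd*, on 3 for *Gabra3*, on 1 for *Gabra4*, and on 0 for *Gabra2* and *Gabra5*. For the last 2 genes the hippocampus was at least 57.0-fold and at least 43.5-fold over the reference, with the Cy3 level of each array set at no less than that of the dimmest probe well above background. Bounded in the same way, *Gabra4* was at least 11.8-fold over the reference. The dimmer *Gabra3* probe was at least 1.49-fold over the reference. Without a dye swap, dye and level cannot be told apart in these values. For *Gabrb2* and *Gabrb1*, which were measured in both channels, the ratios correspond to 114-fold and 69.1-fold. With the scanner software's own log ratio, the values of the genes with a weak reference signal moved most, to 9.28 for *Gabra5*, 8.64 for *Gabra2* and 6.60 for *Gabra4*, and they have no measured rank. Among the others *Gabrb2* was at 8.04, *Gabra3* at 6.98, *Gabrb1* at 6.91 and *Gabrd* at 5.24, so *Gabra3* and *Gabrb1* changed places.

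**Figure D4:**
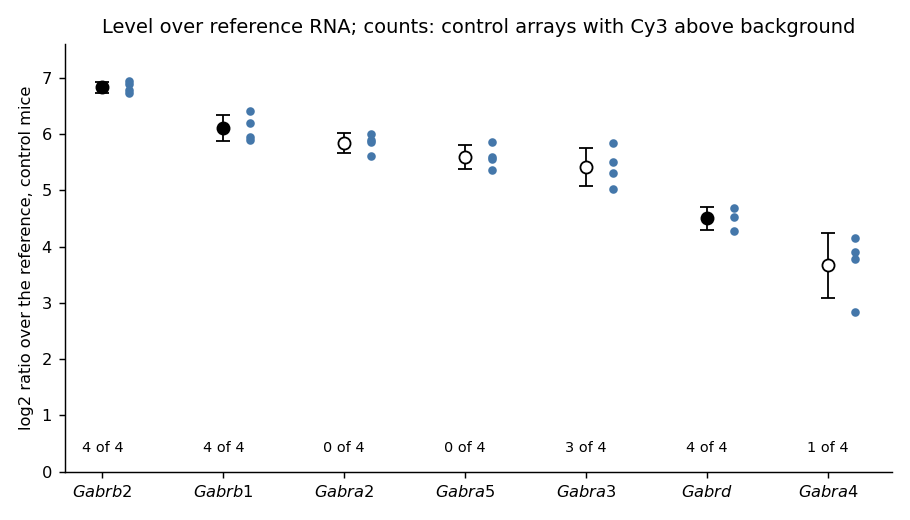
Mean log2 ratio over the reference RNA in control mice with the SD as bars and each mouse as a small point (3 mice for *Gabrd*). The counts along the bottom give the control arrays on which the Cy3 reference was well above background, filled circles mark genes with 4 of 4, and open circles mark *Gabra2*, *Gabra5*, *Gabra3* and *Gabra4*, whose reference level was not measured on every array.

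The other genes of GABA signaling gave the same count of calls as the subunits. Of 54 listed genes 47 were tested, 22 had a higher and 25 a lower mean with BaP, and 0 were called, with a lowest adjusted p of 0.381 from limma. At an unadjusted p of 0.05, 5 passed, beside 8.76% of all probes, and 2 had groups without overlap, both in the higher direction, beside the 2.52% of all probes given above. Among other GABA-A subunits, 3 of 7 tested were higher and 4 lower. *Gabrg1*, a gamma subunit gene next to *Gabra2*, had a log2 fold change of -0.26 (SE 0.13, adjusted p = 0.590 from limma), and -0.16 without control mouse 3.

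Of 20 anchoring and trafficking genes, 9 were higher and 11 lower. *Plcl1*, which encodes PRIP1, a protein that binds the receptor and takes part in its trafficking, had log2 ratios of 3.13, 2.77, 2.70 and 3.07 in control mice and 3.60, 3.68, 3.36 and 3.32 in BaP-exposed mice. The BaP-exposed mice were all above the control mice, and the log2 fold change was 0.57 (SE 0.13, adjusted p = 0.381 from limma). Grouped by the source names it was 0.12. *Hap1*, an adaptor for transport of receptors to the surface, had a log2 fold change of -0.63 (SE 0.24, unadjusted p = 0.0270, adjusted p = 0.537 from limma) and overlapping groups. It is named because it was among the 5 at an unadjusted p of 0.05, a choice made after its values were seen. *Gphn*, which encodes the scaffold gephyrin, gave -0.10 (limma, adjusted p = 0.702).

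Of the 9 genes of GABA synthesis, transport and breakdown, 2 were higher and 7 lower, and their median change was -0.12 on the log2 scale. The largest differences were those of the transporter genes *Slc6a13*, -0.42 (SE 0.47), and *Slc6a12*, -0.38 (SE 0.42), both smaller than their SE and with an adjusted p of 0.810 and 0.807 from limma. They depended on single mice: *Slc6a13* ran from -0.16 without control mouse 3 to -0.88 without control mouse 4, and *Slc6a12* from -0.14 without BaP-exposed mouse 1 to -0.73 without control mouse 4. Over the 4 arrays with agreeing labels they were at -1.24 and -1.21, and over the second slide row at 0.40 and 0.45. Of the 5 genes of GABA-B receptors, 3 were higher and 2 lower. *Gabbr2*, a receptor subunit, had a log2 fold change of -0.34 (SE 0.14, unadjusted p = 0.0355, adjusted p = 0.544 from limma), with -0.10 over the arrays with agreeing labels and -0.58 over the second slide row, and *Kctd8*, an auxiliary subunit, had -0.23 (SE 0.32, adjusted p = 0.853 from limma). Without BaP-exposed mouse 2, whose ratio was 0.46 where the other BaP-exposed mice were at 1.81 to 2.14, the value for *Kctd8* was 0.15.

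Among chloride transport genes, which set the gradient the receptor works against, 2 of 3 were higher. *Slc12a2*, the importer NKCC1, had log2 ratios of 0.92, 0.58, 0.56 and 0.32 in control mice and 0.50, 1.53, 1.84 and 1.03 in BaP-exposed mice, a log2 fold change of 0.63 (SE 0.25, unadjusted p = 0.0320, adjusted p = 0.542 from limma). BaP-exposed mouse 1 lay within the control range and the other 3 above it. The change was 0.27 over the 4 arrays with agreeing labels and 0.997 over the second slide row. Choroid plexus, which also uses this importer, had 8 of 8 markers higher on average and 0 called, with list means of 1.93, 4.81, 5.22 and 4.36 in BaP-exposed mice 1 to 4 against 2.49 to 4.25 in control mice. The part of choroid plexus in the *Slc12a2* values was not tested. *Clcn2*, a chloride channel, had a log2 fold change of -0.16 (SE 0.17, adjusted p = 0.794 from limma), and the exporter gene *Slc12a5* had 0.01.

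Of the genes that supply modulators of the receptor, all 3 tested of 5 were higher. *Srd5a1*, the enzyme that takes the first step from progesterone toward the neurosteroid allopregnanolone, had log2 ratios of -0.41, -0.43, -0.82 and -0.75 in control mice and 0.07, 0.20, 0.22 and -0.39 in BaP-exposed mice. The groups did not overlap, although BaP-exposed mouse 4 came close to control mouse 1, and the log2 fold change was 0.63 (SE 0.15, adjusted p = 0.448 from limma). GABAergic interneuron markers were lower for 8 of 9 genes, 0 called. Over the 8 genes of this list that had a value on every array (*Reln* did not), the list means were 3.05 to 3.32 in control mice and 3.03 to 3.20 in BaP-exposed mice, and the groups overlapped.

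Over the 4 arrays with agreeing labels alone, 0 of the members were called, and the log2 fold changes were -0.16 for *Gabra2*, -0.57 for *Gabra3*, 0.52 for *Gabra4*, 0.21 for *Gabra5* and -0.01 for *Gabrb2*. In the same arrays *Gabrd* had 1 control value left, 4.53, against 4.69 and 4.79 in BaP-exposed mice. Grouped by the source names in place of the titles, the change was 0.0045 for *Gabra2*, -0.16 for *Gabra3*, 0.19 for *Gabra4*, 0.15 for *Gabra5*, 0.26 for *Gabrb1*, 0.10 for *Gabrb2* and -0.04 for *Gabrd*, again with 0 calls. Over all probes 1430 had an unadjusted p of 0.05 or less by source name and 2855 by title. The direction of *Gabra3*, *Gabra4* and *Gabra5* was the same by either label, while the other members had opposite signs. Both groupings share the first-row arrays and differ only in the second row. The same sign thus says only that the first row had the larger difference. For *Gabra5* the rows themselves differed in sign, 0.21 and -0.085.

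**Figure D5:**
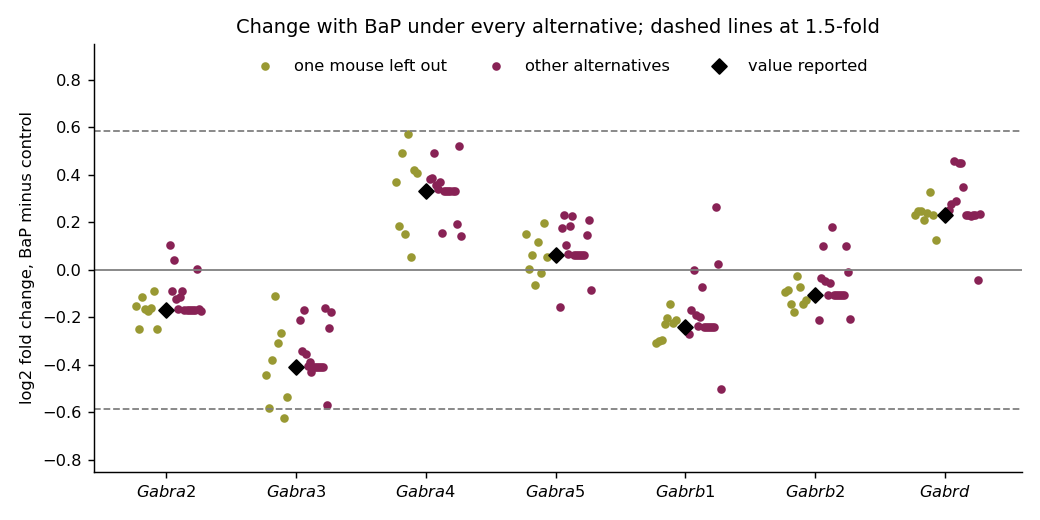
Log2 fold change of each subunit gene under the alternatives: the black diamond is the value reported, the points on its left leave out 1 mouse each, and those on its right are the other alternatives, with dashed lines at a 1.5-fold change. *Gabra3* stayed below 0 and *Gabra4* above 0 in all of the alternatives, the 2 with the widest intervals.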

How the data were processed

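The authors deposited scanner output with the median intensity of each spot in Cy5 and Cy3, made with Agilent Feature Extraction 11.0.1.1 per the file headers, its log10 ratio of Cy5 over Cy3, and a table of log2 ratios that the authors describe as LOWESS-normalized. Here the spot medians were background-corrected (normexp, offset 50), control spots were dropped, outlier spots were set to missing, ratios were normalized by loess within arrays, and repeated spots were averaged per probe. A probe was tested if its Cy5 signal was well above background on 4 or more of the 8 arrays, which held for 32599 of 55681, with limma 3.58.1 (R 4.3.3) and Benjamini-Hochberg adjustment. Calls needed an adjusted p of 0.05 and 1.5-fold, or 2-fold over the reference. The brightest probe stood for a gene. Exact tests were 2-sided, and with 4 against 4 mice cannot go below 0.0286. The number of arrays sets the precision. On simulated data with 200 of 32000 probes changed by 2 on the log2 scale, 199 were recovered with 11 false calls. Members and lists were chosen with earlier results of these data known. From each list, genes without overlap were named, or else the 2 largest changes; 1 of these is not reported here. A gene-wise F test stood in for the analysis of variance of the methods. Summaries used Python 3.11.15 (scipy 1.17.1, pandas 2.3.3, numpy 2.4.6). Promoter windows were those of RefSeq.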

Additional observations from a re-analysis of the deposited data

Results flagged for a closer look

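*Clcn2* in the control mice was the 1 result with a sample far from the others among the genes named with values by the rule; the other genes of the lists were not looked at in this way. Control mouse 2 had a log2 ratio of 1.67, while the other 3 control mice were at 0.86 to 0.993, and the gap was 0.837 of the range of the group. In 33 groups looked at in this way, chance alone gives 1.65. Without control mouse 2 the log2 fold change of *Clcn2* was 0.028 in place of -0.16.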

How the results depend on the processing

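In 25 alternatives 0 of the subunit genes were called, and the lowest adjusted p was 0.221 (limma), for *Gabrd* with arrays centred on their median. That centring placed the median of all probes at 0.17 and 82.77% of probes above 0. Relative to that median, *Gabrd* was at 0.29, *Gabra2* at -0.13, *Gabrb1* at -0.17 and *Gabrb2* at -0.066, so these 4 genes kept their sign relative to all probes, and the positive values of *Gabra2*, *Gabrb1* and *Gabrb2* given for this centring are smaller than the shift. Of 167 values of the 7 genes under alternatives, 153 kept their sign and 14 did not, before any allowance for that shift. For *Gabra2* the sign changed with the scanner's log ratio (0.10), median centring (0.041) and the source names (0.0045). For *Gabra5* it changed with the scanner's log ratio (-0.16), in the second slide row (-0.085), without BaP-exposed mouse 2 (-0.063) and without control mouse 3 (-0.015), and its values with 1 mouse left out reached 0.20. For *Gabrb1* it changed over the arrays with agreeing labels (0.024), with median centring (0.00023) and by source names (0.26), for *Gabrb2* with Cy5 alone (0.18), median centring (0.10) and source names (0.10), and for *Gabrd* by source names (-0.042). The dimmer *Gabra3* probe was at -0.059 with Cy5 alone, at -0.042 by source names, and at -0.021 and -0.039 without control mouse 3 and BaP-exposed mouse 4.

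By source names the sign also changed for *Gabrg1* (0.12), *Gabbr2* (0.24), *Slc12a2* (-0.37) and *Srd5a1* (-0.077). *Kctd8* changed sign with Cy5 alone (0.17), without BaP-exposed mouse 2 (0.15, the other mice left out giving down to -0.41) and in the second row (0.032), where *Slc6a13* (0.40) and *Slc6a12* (0.45) did so too. *Clcn2* was at 0.11 with median centring, under the shift of all probes, and 0.028 without control mouse 2. The cause was not tested.

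Over all probes, 3 calls became 0 with the scanner's log ratio, the gene-wise F test, the source names, the agreeing arrays and the second row, 6 with Cy5 alone and 5 without the filter on dim probes. Leaving out 1 mouse gave 1 to 3 calls, 1 without control mouse 1, 3 or 4 or BaP-exposed mouse 2. The 7 members were over the reference in each alternative run for that level. The replicate numbers did not pair the mice: deviations of same-numbered mice correlated at -0.354 to 0.0313. A replicate block left 3 calls over all probes and 0 among members (*Gabrb1* -0.24, adjusted p = 0.719 from limma). *Gabrd*, missing on the array of control mouse 1, has no value with the replicate block or over the agreeing arrays. Dim reference signal limits the ratios of *Gabra2*, *Gabra4* and *Gabra5* most.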
